A study of Mus musculus with 18 samples.

Results

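The 42 genes described here are a selection around the amino acid branch of the integrated stress response in mouse cells. They cover ATF4 and its partner factors, enzymes of serine, folate one-carbon, asparagine and proline synthesis, amino acid transporters and cytosolic tRNA synthetases. They were listed by gene symbol, with earlier results of these data known. Counts of called members are therefore not independent of that choice. All 42 were present among the 34591 gene symbols counted, and all 42 passed the filter on low counts in every comparison. Poly(A)-enriched RNA had been sequenced from 18 samples of 4T1, a mammary tumour line of BALB/c mice that grows as an epithelial carcinoma. The samples formed 6 groups of 3.

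Parental 4T1 cells in RPMI medium with serum were changed to fresh medium containing 2 ng/mL of recombinant human TGFb1, which induces matrix genes and epithelial-mesenchymal transition in many carcinomas, or to fresh medium alone (untreated), and RNA was taken after 24 h. The other 4 groups came from stable lines made by lentiviral transduction and puromycin selection. One line carried Wisp1, a matrix-associated secreted factor related to CTGF, and the other carried the empty vector (EV). Each line was grown to a subconfluent state on dishes coated with collagen type I and on tissue culture plastic. The labels name 1 line per vector and do not say whether the 3 samples of a group came from separate cultures, so p-values measure the spread between these samples, which may be technical, and not between independent transductions. The sample codes in the labels form separate runs for plastic, for collagen and for parental cells. What the codes mark is not given, and any difference between such runs and the effect of the substrate cannot be told apart.

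ATF4 is a transcription factor whose mRNA is translated better when the initiation factor eIF2-alpha is phosphorylated, as happens in cells short of amino acids or with misfolded protein in the endoplasmic reticulum. Its protein, which RNA sequencing does not measure, binds C/EBP-ATF response elements as a heterodimer and raises genes that supply amino acids, charge tRNAs and support glutathione synthesis. In tumour cells the same genes feed serine and formate into nucleotide synthesis. TRIB3 and CHOP, the product of Ddit3, are induced by ATF4, and TRIB3 feeds back on it.

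Counts assigned to genes ran from 37552858 to 94401699 per library. The 42 genes held 0.455 to 0.913% of them, and 41 of the 42 had at least 100 counts in every library. Wisp1 itself, the check of the stable lines, had 892 to 1127 CPM in the Wisp1 libraries against 14.3 to 71.4 CPM in the EV libraries. The exception among the 42 was Cbs, the first enzyme of transsulfuration, with 3 to 216 counts per library. Epithelial markers (Krt8, Krt18, Krt19, Epcam, Cdh1, Cldn3 and Cldn7) summed to 2032 to 4755 CPM (gene counts scaled to a common library size) across the libraries. Of the 7 leukocyte markers 4 stayed under 1 CPM everywhere and Cd3e was at 0, all 5 endothelial markers stayed under 1 CPM, and of the 6 fibroblast markers 2 stayed under 1 CPM, Thy1 at 0, while Pdgfra averaged 16.4 to 51.4 CPM by group. In RefSeq, 7 of the 42 genes overlap another protein-coding gene: Atf5, Psph, Shmt2, Aars and Wars overlap genes outside the list, Ddit3 and Mars overlap each other, and Ddit3 also overlaps Mbd6, outside the list. The strand setting of the counting is not given in the sources used here, so reads could be shared between such genes and these values are less certain. In bulk RNA, fewer cells of a kind and less RNA per cell cannot be told apart. All CPM values are scaled by the trimmed mean of M-values (TMM), and adjusted p-values come from edgeR's quasi-likelihood test with the Benjamini-Hochberg adjustment over all genes tested. Genes were called where it was under 0.05.

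The element that ATF4 heterodimers bind was searched for as TGATGNAA on both strands in RefSeq promoter windows (GRCm38.p6) of 300 bases, from 250 bases before to 50 after the transcription start. Windows were found for 34 of the 42 genes, and 13 of the 34 (38.2%) held a match, against 4.51% of the 27025 genes in the table. A match is a run of letters and not a measured binding site. The 5 windows below belong to genes whose values are described first: the regulators Atf3 and Trib3, the cystine importer Slc7a11 and the glutathione-degrading enzyme Chac1, which fell most with collagen among the members with a match in the EV line, and the neutral amino acid transporter Slc1a4, which was called higher with TGFb1. Capitals mark the match, and each run reads 5′ to 3′ on the strand of the gene.
Atf3: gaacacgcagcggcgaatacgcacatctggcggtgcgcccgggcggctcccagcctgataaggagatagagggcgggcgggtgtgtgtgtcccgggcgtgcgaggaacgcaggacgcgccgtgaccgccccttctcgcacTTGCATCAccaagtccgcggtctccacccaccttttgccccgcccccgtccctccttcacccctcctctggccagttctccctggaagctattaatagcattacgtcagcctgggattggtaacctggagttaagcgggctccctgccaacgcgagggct
Trib3: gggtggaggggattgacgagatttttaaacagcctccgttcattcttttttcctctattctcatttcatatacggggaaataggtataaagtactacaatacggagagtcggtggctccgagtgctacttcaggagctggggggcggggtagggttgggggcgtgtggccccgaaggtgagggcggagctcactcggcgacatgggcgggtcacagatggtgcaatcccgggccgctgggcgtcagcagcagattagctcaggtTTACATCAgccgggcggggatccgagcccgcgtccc
Slc7a11: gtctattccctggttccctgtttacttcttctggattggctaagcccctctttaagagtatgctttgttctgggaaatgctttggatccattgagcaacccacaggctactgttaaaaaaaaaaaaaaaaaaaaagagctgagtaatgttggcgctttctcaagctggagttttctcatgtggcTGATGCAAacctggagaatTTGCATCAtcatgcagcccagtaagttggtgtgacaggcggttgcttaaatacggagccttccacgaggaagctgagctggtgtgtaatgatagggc
Chac1: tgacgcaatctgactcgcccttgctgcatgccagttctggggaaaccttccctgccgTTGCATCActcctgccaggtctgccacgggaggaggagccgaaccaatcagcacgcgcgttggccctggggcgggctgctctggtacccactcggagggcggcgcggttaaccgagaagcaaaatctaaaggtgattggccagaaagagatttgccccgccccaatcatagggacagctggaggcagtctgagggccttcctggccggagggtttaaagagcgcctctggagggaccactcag
Slc1a4: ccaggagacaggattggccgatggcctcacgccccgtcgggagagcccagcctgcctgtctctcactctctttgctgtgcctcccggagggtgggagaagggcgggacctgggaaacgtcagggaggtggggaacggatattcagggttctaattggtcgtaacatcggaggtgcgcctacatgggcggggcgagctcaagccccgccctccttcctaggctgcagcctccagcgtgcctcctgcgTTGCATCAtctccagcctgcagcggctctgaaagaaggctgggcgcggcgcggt
The windows lie at chr1:191183284-191183583 on the minus strand for Atf3, chr2:152344011-152344310 on the minus strand for Trib3, chr3:50443564-50443863 on the minus strand for Slc7a11, chr2:119350992-119351291 on the plus strand for Chac1 and chr11:20332664-20332963 on the minus strand for Slc1a4. Slc7a11 carried 2 matches, which begin 66 and 47 bases before the start and lie on opposite strands. The match of Atf3 began 110 bases before the start, that of Chac1 193 bases before it, that of Slc1a4 4 bases before it and that of Trib3 at base 15 of the transcript. The other members with a match were Asns, Pycr1, Aars, Gars, Tars, Iars, Yars and Vldlr.

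Growth on collagen type I was compared with plastic in each stable line, which asks what the matrix under the cells changed. Most of the 42 genes were lower on collagen in both lines. In the EV line 35 of the 42 fell and 1 rose, where 17.3% of all 13953 genes tested fell, 19.2% rose and 36.5% were called in either direction. In the Wisp1 line 29 of the 42 fell and none rose, where 19.1% of all genes fell, 21.3% rose and 40.4% were called in either direction. The median log2 change over the 42 was -0.39 in the Wisp1 line and -0.41 in the EV line, while the median over all genes was 0.01 in the Wisp1 line and 0.0011 in the EV line. There were 28 genes lower in both lines, which is 28 of the 29 called in the Wisp1 line and 28 of the 35 lower in the EV line. In 33 of the 42 the Wisp1 libraries on collagen and on plastic did not overlap (51.1% of all genes), and in 34 of the 42 the EV libraries did not (46.6% of all genes).

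Trib3, Slc7a11 and Atf3 had the largest changes in both lines. Atf3, an ATF4-induced repressor of the same leucine zipper family, had 5.32, 5.37 and 5.3 CPM in the EV line on collagen, against 11, 16 and 13.6 CPM on plastic. In the Wisp1 line it had 4.99, 5.65 and 4.67 CPM on collagen, against 10.3, 13.6 and 11.7 CPM on plastic. Every collagen library lay below every plastic library, so Atf3 was 2.53-fold lower in the EV line (log2 change -1.34, SE 0.12, adjusted p = 2.9e-06) and 2.31-fold lower in the Wisp1 line (log2 change -1.21, SE 0.13, adjusted p = 9.71e-06). Trib3, a pseudokinase that restrains ATF4, had 14.8, 14.2 and 17.7 CPM on collagen in the EV line, against 35.7, 62.4 and 33.9 CPM on plastic. The corresponding Wisp1 libraries had 18.1, 15.7 and 14.3 CPM on collagen, against 34, 46.6 and 31 CPM on plastic. Again no collagen library reached a plastic one, with the widest spread among the plastic libraries, and Trib3 fell 2.82-fold in the EV line (log2 change -1.49, SE 0.24, adjusted p = 0.000905) and 2.29-fold in the Wisp1 line (log2 change -1.20, SE 0.24, adjusted p = 0.00319).

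The log2 changes of Atf4 itself were smaller than those of these targets. Its mRNA had 225, 224 and 246 CPM in the EV line on collagen, against 274, 352 and 312 CPM on plastic, and 226, 225 and 234 CPM in the Wisp1 line on collagen, against 292, 335 and 316 CPM on plastic. The groups did not overlap in either line, with log2 changes of -0.43 (SE 0.07, adjusted p = 0.000357) in EV and -0.45 (SE 0.07, adjusted p = 0.000208) in Wisp1. Atf5, a related factor that is also translated under stress, was lower in the EV line (log2 change -0.59, adjusted p = 0.0161), and its value in the Wisp1 line missed the threshold (log2 change -0.43, adjusted p = 0.0603). Ddit3, which encodes the stress factor CHOP, was likewise lower in EV (log2 change -0.48, adjusted p = 0.0302) and not called in Wisp1 (log2 change -0.11, adjusted p = 0.612). The call for Ddit3 in EV was lost without EV plastic replicate 2 (adjusted p = 0.178), the library in which it was highest at 9.94 CPM. Whether the 2 lines differ in these responses was tested as an interaction, given further below.

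**Figure D1:**
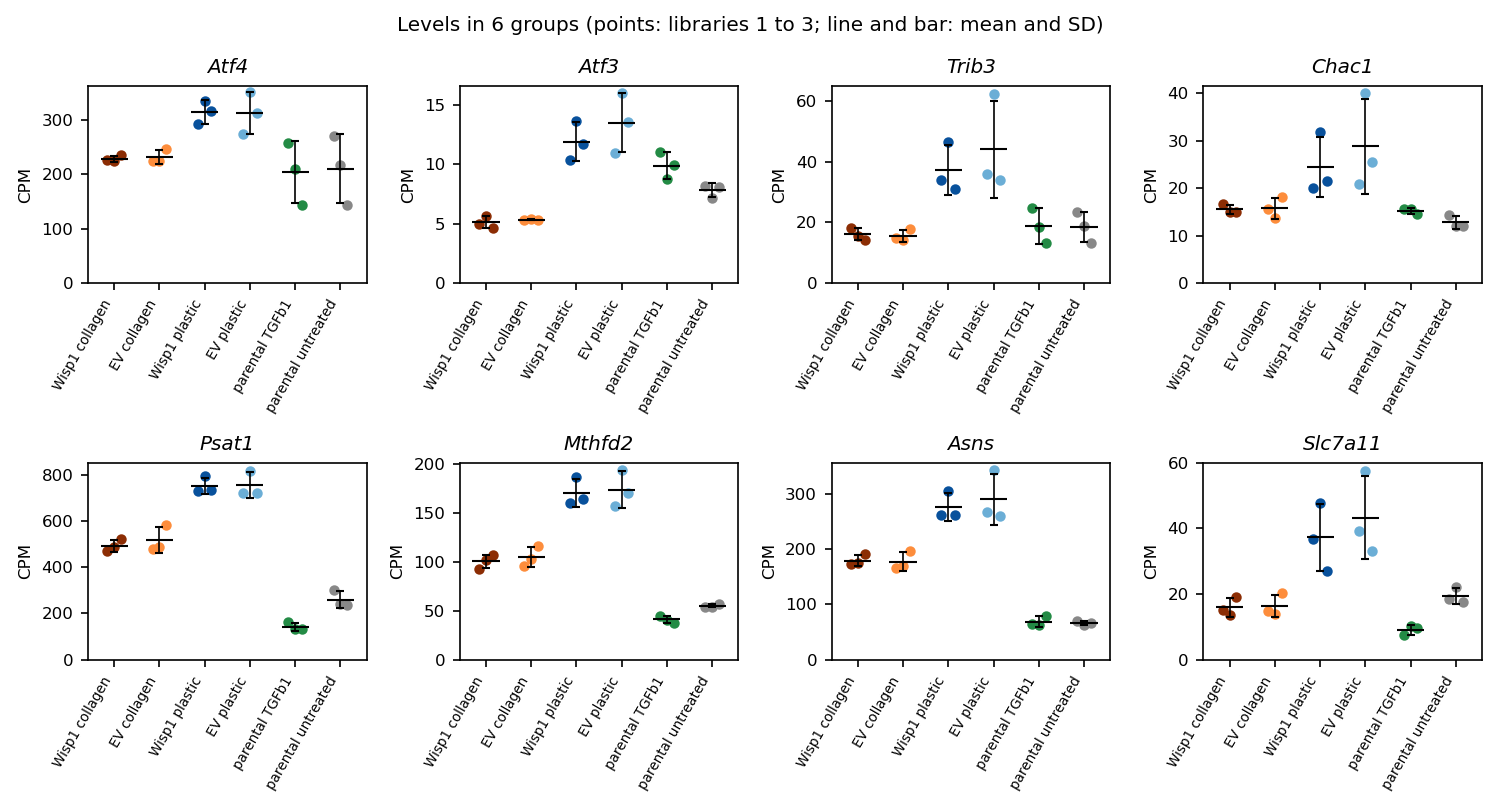
Levels of 8 members in CPM, 3 libraries per group, with the mean (line) and SD (bar); groups run from the Wisp1 line on collagen to untreated parental cells. All 8 genes sit higher on plastic than on collagen in both stable lines, and Psat1, Mthfd2 and Asns sit lower in the parental groups than in any stable-line group.

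The 3 enzymes that make serine from a glycolytic intermediate all fell in both lines. Psat1, the aminotransferase of the pathway, had 481, 490.1 and 581 CPM on collagen in the EV line, against 724, 819.8 and 723 CPM on plastic, and 472, 488 and 522 CPM on collagen in the Wisp1 line, against 731, 794 and 735 CPM on plastic. The highest collagen library of either line stayed well below the lowest plastic one, a fall of 1.45-fold in EV (log2 change -0.54, SE 0.07, adjusted p = 5e-05) and 1.52-fold in Wisp1 (log2 change -0.60, SE 0.07, adjusted p = 1.95e-05). Psph, the phosphatase of the last step, averaged 49.4 ± 5.11 CPM on collagen and 79 ± 9.29 CPM on plastic in EV (SD, n = 3 each; adjusted p = 4.14e-05), and its log2 change was -0.56 in Wisp1 (adjusted p = 0.000161). Phgdh, the dehydrogenase of the first step, changed less, by -0.16 on the log2 scale in EV (adjusted p = 0.00905) and -0.26 in Wisp1 (adjusted p = 0.000299).

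Folate enzymes carry the one-carbon units taken from serine, with Shmt2, Mthfd2 and Mthfd1l in mitochondria and Shmt1 and Mthfd1 in the cytosol. Mthfd2, which is low in most adult tissues and high in tumours, had 95.6, 102 and 116 CPM on collagen in the EV line, against 157, 193 and 170.4 CPM on plastic. In the Wisp1 line it had 92.7, 101 and 107 CPM on collagen, against 160.0, 186 and 163 CPM on plastic. No collagen library overlapped a plastic one, and the log2 changes were -0.72 in EV (SE 0.08, adjusted p = 3.61e-05) and -0.75 in Wisp1 (SE 0.09, adjusted p = 2.53e-05). Shmt2, the mitochondrial enzyme that splits serine, fell by 0.41 on the log2 scale in EV (adjusted p = 0.000855) and by 0.46 in Wisp1 (adjusted p = 0.000332). Mthfd1l and Mthfd1 fell by small amounts, Mthfd1l by 0.20 in EV (adjusted p = 0.00607) and Mthfd1 by 0.14 in EV (adjusted p = 0.045), and both were called in Wisp1 as well. The EV libraries of Mthfd1 overlapped, and its call there held in 8 of 19 settings. Shmt1, the cytosolic counterpart of Shmt2, was the 1 member called higher: it had 84.7, 86.7 and 93.4 CPM on collagen in EV, against 82.4, 77 and 84.5 CPM on plastic. The EV groups stood only just apart (log2 change 0.13, SE 0.05, adjusted p = 0.0498), the call held in 6 of 19 settings, and in Wisp1 Shmt1 was not called (log2 change 0.06, adjusted p = 0.349).

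Among enzymes of asparagine, proline, alanine and cysteine supply, Asns and Aldh18a1 fell in both lines and Gpt2 and Cth in EV. Asns, the asparagine synthetase that is a standard readout of ATF4, had 166, 170.2 and 197 CPM on collagen in EV, against 269, 343 and 260.2 CPM on plastic, and 173, 174 and 191 CPM on collagen in Wisp1, against 263, 307 and 262 CPM on plastic. The groups were apart in both lines, and Asns fell 1.63-fold in EV (adjusted p = 0.000182) and 1.54-fold in Wisp1 (adjusted p = 0.000403). Aldh18a1, which starts proline synthesis from glutamate, had log2 changes of -0.48 in EV and -0.42 in Wisp1 (adjusted p = 0.000123 and 0.000302). Gpt2, the mitochondrial alanine aminotransferase, and Cth, the cysteine-producing lyase of transsulfuration, were lower in EV (log2 -0.69 and -0.55) and missed the threshold in Wisp1 (adjusted p = 0.13 and 0.10). Pycr1, a later enzyme of proline synthesis, and the scarcely counted Cbs were called in neither line.

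Of the 7 transporters, Slc7a11, Slc7a5 and Slc3a2 fell in both lines. Slc7a11, the cystine-glutamate exchanger, had 14.7, 14 and 20.2 CPM on collagen in EV, against 39.1, 57.5 and 33.1 CPM on plastic. In Wisp1 it had 15.1, 13.6 and 18.9 CPM on collagen, against 36.7, 47.8 and 27.1 CPM on plastic. All collagen libraries lay below all plastic libraries, a fall of 2.63-fold in EV (log2 change -1.40, SE 0.26, adjusted p = 0.00242) and 2.32-fold in Wisp1 (log2 change -1.22, SE 0.27, adjusted p = 0.00524). Slc3a2, the heavy chain that pairs with Slc7a11 and with Slc7a5, fell by 0.55 on the log2 scale in EV and by 0.55 in Wisp1 (adjusted p = 0.00031 and 0.000287), and Slc7a5, the leucine carrier, by 0.46 and 0.51 (adjusted p = 0.00957 and 0.0048). The neutral amino acid exchanger Slc1a4 was called lower in EV (adjusted p = 0.00378) and its relative Slc1a5, a glutamine carrier, in Wisp1 (adjusted p = 0.0231). The arginine carrier Slc7a1 and the glutamine carrier Slc38a2 were called in neither line.

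Cytosolic tRNA synthetases load amino acids onto tRNAs for translation. Of the 12 members, 11 fell in the EV line and 11 in the Wisp1 line, Cars (cysteine) being the exception in both. The falls were narrow in range, 1.18 to 1.36-fold in EV and 1.2 to 1.38-fold in Wisp1, with every adjusted p at or below 0.00502 in EV and 0.00303 in Wisp1. Eprs (glutamate and proline) had 353, 387 and 414 CPM on collagen in EV, against 518, 545 and 511 CPM on plastic, and 365, 397 and 398 CPM on collagen in Wisp1, against 534, 547 and 524 CPM on plastic. Its groups were far apart in both lines (log2 change -0.44, SE 0.05, adjusted p = 3.53e-05 in EV; log2 change -0.46, SE 0.05, adjusted p = 2.43e-05 in Wisp1). Nars (asparagine) followed with log2 changes of -0.41 and -0.46, Gars (glycine) with -0.41 and -0.41, and Lars (leucine) with -0.37 and -0.37 in EV and Wisp1. Cars had 128, 131 and 139 CPM on collagen in EV, against 129.6, 147 and 137 CPM on plastic, with the groups overlapping (log2 change -0.05, adjusted p = 0.41).

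Of the remaining stress targets, Sesn2, a leucine-sensing inhibitor of mTORC1, and Stc2, a secreted glycoprotein, fell in both lines (Sesn2 log2 -0.78 in EV and -0.67 in Wisp1; Stc2 -0.54 and -0.43). Chac1 had 15.7, 13.7 and 18.1 CPM on collagen in EV, against 21, 40.1 and 25.5 CPM on plastic, a fall of 1.83-fold (log2 change -0.87, SE 0.23, adjusted p = 0.0138). In Wisp1 it had 16.7, 15 and 14.9 CPM on collagen, against 20.1, 31.7 and 21.6 CPM on plastic. Those groups did not overlap either, yet the test missed the threshold (log2 change -0.64, SE 0.23, adjusted p = 0.0522). Vldlr, a lipoprotein receptor induced by ATF4, had 4.12, 5.03 and 4.1 CPM on collagen in EV, against 6.9, 10.5 and 4.92 CPM on plastic. The third plastic library lay inside the collagen range, and without EV plastic replicate 2 the fall was no longer called (adjusted p = 0.0727, against 0.0156 with it). In Wisp1 Vldlr was not called (log2 change 0.10, adjusted p = 0.752).

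Some calls rested on single libraries. In EV those of Atf5, Gpt2 and Chac1 were lost without EV collagen replicate 1 and without replicate 2, that of Ddit3 without EV collagen replicate 2 or 3, and that of Vldlr without EV collagen replicate 1 or 3. In Wisp1 that of Slc1a5 was lost without Wisp1 collagen replicate 1 and without Wisp1 plastic replicate 2 or 3. Without EV plastic replicate 2, which adds to the shared estimate of spread, Atf5, Gpt2, Cth, Slc1a4 and Chac1 were called lower in Wisp1 too, for 34 members in all.

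**Figure D2:**
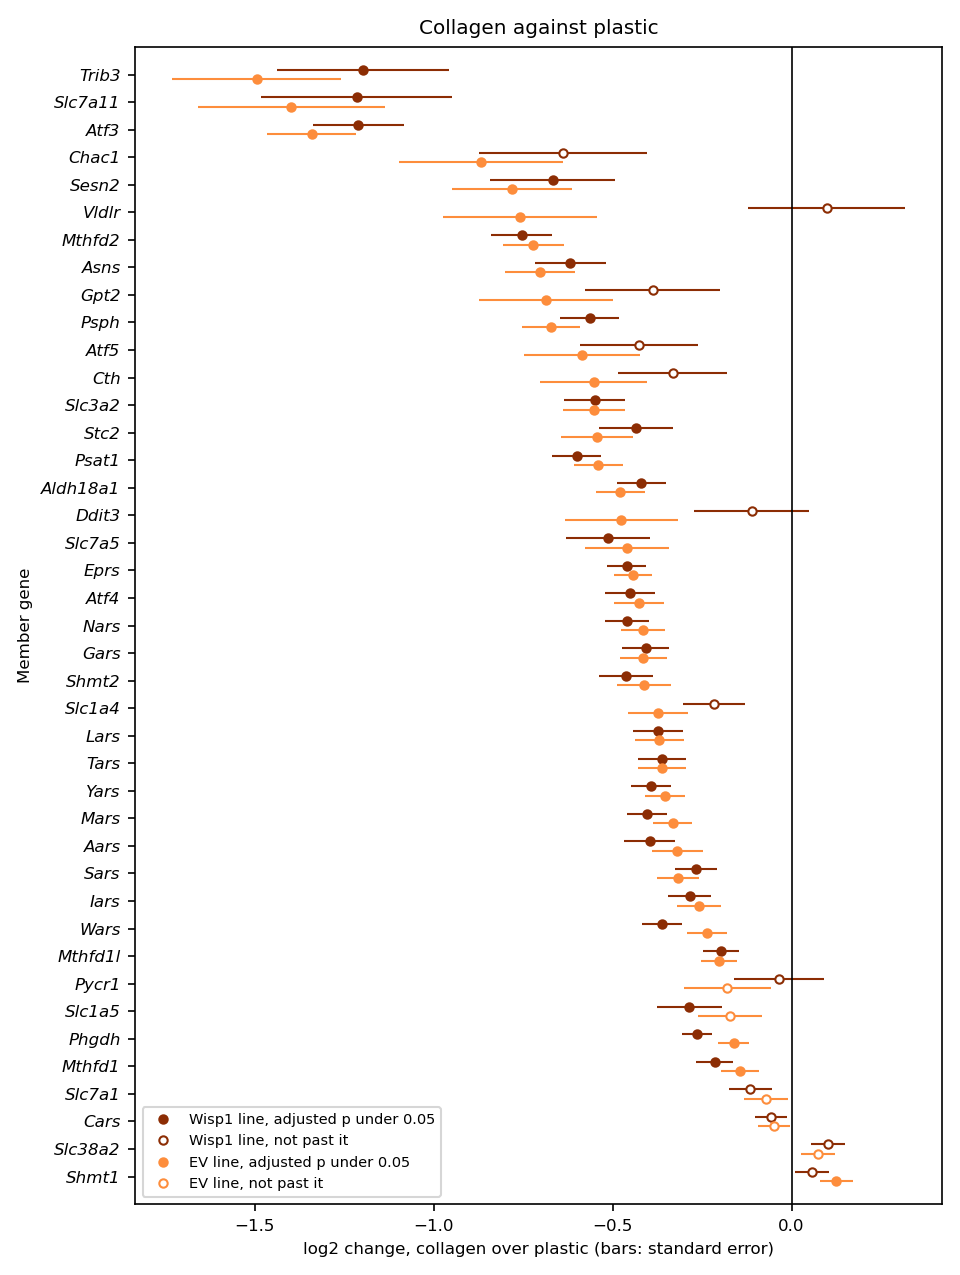
Log2 change on collagen over plastic with its standard error for 41 members (Cbs, with few counts, left out), in the Wisp1 line (dark) and the EV line (light), filled where the adjusted p was under 0.05. Most points lie left of 0, Trib3, Slc7a11 and Atf3 furthest, while Slc38a2 and Shmt1 lie right of 0 in both lines and Vldlr in the Wisp1 line, Shmt1 in EV being the 1 filled point there.

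The medians of members with a promoter match and of members without one lay close together. In the EV line 12 of the 13 with a match and 17 of the 21 without one fell on collagen, with median log2 changes of -0.41 and -0.44. In the Wisp1 line the counts were 9 of 13 and 14 of 21, with medians of -0.40 and -0.42. These counts and medians are descriptions and were not tested against each other.

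Other genes of the same pathways were counted in the same way. Over all genes 19.1% fell and 21.3% rose in Wisp1, and 17.3% fell and 19.2% rose in EV. Of 11 further cytosolic synthetases and complex proteins, 9 fell in Wisp1 and 7 in EV, and none rose. Kars (lysine) averaged 356 ± 18.4 CPM on collagen and 437 ± 5.62 CPM on plastic in EV (SD, n = 3 each; adjusted p = 7.69e-05), and the multisynthetase complex protein Eef1e1 averaged 46.8 ± 0.95 and 60.9 ± 3.77 CPM (adjusted p = 9.07e-05). Among the 17 mitochondrial synthetases, which load tRNAs inside the organelle, 4 fell and none rose in Wisp1, and 3 fell and 2 rose in EV, with medians of -0.08 in Wisp1 and 0.01 in EV. Of 16 other serine, glycine and folate genes tested, 7 fell in each line, among them Ahcy, which clears the product of methylation (log2 -0.39 in EV and -0.48 in Wisp1), and 2 rose in EV. Of 18 other integrated stress response genes, 8 fell and 2 rose in Wisp1 and 9 fell and 1 rose in EV, led by the tRNA exporter Xpot (log2 -0.46 in EV and -0.49 in Wisp1). The proton-coupled lysosomal carrier Slc36a1 went up on collagen in both lines (log2 0.52 in EV and 0.61 in Wisp1). The difference between the cytosolic and the mitochondrial list was not tested.

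Marker sums moved with the substrate too. Epithelial markers summed to 2957 to 3929 CPM in Wisp1 on collagen against 2610 to 2918 CPM on plastic, and to 3065 to 3397 CPM in EV on collagen against 2599 to 2859 CPM on plastic. Krt8 and Krt18 were higher on collagen, Krt8 averaging 1340 CPM there and 1021 CPM on plastic in EV, whereas Cdh1 averaged 408 CPM on collagen and 484 CPM on plastic in Wisp1, and 413 and 515 CPM in EV, with Cldn3 and Cldn7 also lower on collagen in both. Fibroblast markers summed to 26.8 to 33.9 CPM in Wisp1 on collagen against 17 to 19.1 CPM on plastic, and to 25.6 to 30.4 CPM in EV on collagen against 16.3 to 22.2 CPM on plastic. Pdgfra made up most of these sums, and Col1a2 averaged 0.314 CPM on collagen and 0.834 CPM on plastic in EV. Leukocyte markers summed to 9.21 to 9.95 CPM in Wisp1 on collagen against 5.19 to 7.13 CPM on plastic, and to 7.08 to 9.44 CPM in EV on collagen against 5.0 to 6.52 CPM on plastic. The part of these in the falls of the 42 genes was not tested.

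Wisp1 was compared with EV on each substrate to ask what the overexpressed protein changed. None of the 42 genes was called on plastic or on collagen by edgeR, and DESeq2 called none either. Over all genes 0.0143% were called on plastic and 0.0717% on collagen. The libraries of the 2 lines stood apart for 1 of 42 genes on plastic (Phgdh, against 12.2% of all genes) and 1 on collagen (Vldlr, against 8.94%). At an unadjusted p under 0.05 there were 0 members on plastic and 1 on collagen, against 5.89% and 5.07% of all genes. Changes of the 42 genes ran from -0.35 to 0.10 on the log2 scale on plastic and from -0.12 to 0.51 on collagen. The 3 smallest p-values on plastic belonged to Stc2 (log2 -0.20), Phgdh (0.08) and Slc38a2 (-0.09), each with an adjusted p of 0.832 or more. On collagen they belonged to Vldlr, Wars and Ddit3, with 0.51, -0.11 and 0.23 and adjusted p of 0.947 or more.

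Libraries of the 2 lines with the same number deviated together on each substrate, so the replicate number was also fitted as a block. It called Psph and Slc7a11 lower with Wisp1 on plastic (2 of 42; 3.15% of all genes were called in either direction and 1.08% lower). Slc7a11 had 36.7, 47.8 and 27.1 CPM in Wisp1 against 39.1, 57.5 and 33.1 CPM in EV on plastic, lower in each of the 3 pairs although the groups overlapped (adjusted p = 0.0112 with the block, against 0.914 without it). Psph had 68.6, 78.9 and 68.2 CPM in Wisp1 against 74.5, 89.7 and 72.9 CPM in EV, also lower in each pair (adjusted p = 0.0414 with the block). On collagen the block called Vldlr higher and Wars, the tryptophan synthetase, lower (2 of 42, against 2.57% of all genes). Vldlr had 6.15, 6.35 and 6.29 CPM in Wisp1 against 4.12, 5.03 and 4.1 CPM in EV on collagen, with no overlap (adjusted p = 0.00919 with the block, against 0.947 without it).

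The interaction asked whether collagen acted differently in the Wisp1 line than in the EV line. It called 0 of the 42 genes and 0% of all genes in edgeR, with 1 member and 2.94% of all genes at an unadjusted p under 0.05. DESeq2 called 1 gene overall and no member. Vldlr had the largest value (log2 change 0.86, SE 0.31, adjusted p = 0.973), and the fit blocked within each substrate called it (adjusted p = 0.0179), alone among the members and against 0.502% of all genes. For the other members called in 1 line only, Atf5, Chac1, Cth, Ddit3, Gpt2, Slc1a4 and Slc1a5, no fit run called a difference between the lines.

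TGFb1 was compared with untreated parental cells. Without the replicate block, 3 of 5 folate enzymes, 1 of 3 serine synthesis enzymes and 2 of 7 transporters fell. Slc1a4 rose, and Atf4 was not called in any fit run. Of the 42 genes 6 fell and 1 rose, where 4.92% of the 14874 genes tested fell, 6.14% rose and 11.1% were called in either direction. In 18 of the 42 the groups did not overlap, against 30.5% of all genes, and the median log2 change over the 42 was 0.07, or 0.17 without untreated replicate 1 and 0.03 without untreated replicate 3 or TGFb1 replicate 1. The parental libraries share a code number between the groups, and libraries with the same code deviated together. With the code as a block 12 of the 42 fell and 10 rose, where 22.5% of all genes fell, 22.4% rose and 44.9% were called. Without untreated replicate 2 Shmt1 was the 1 member called without the block, and without TGFb1 replicate 2 the 2 called were Shmt1 and Slc1a4.

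Shmt1 showed the largest fall. It had 35.1, 26.3 and 23 CPM with TGFb1, against 94.7, 78.4 and 70.7 CPM in untreated cells. The groups lay far apart, a 2.87-fold fall (log2 change -1.52, SE 0.19, adjusted p = 0.00606) that was called in every setting tried. Mthfd1, which interconverts folate one-carbon forms in the cytosol, had 83.3, 76.4 and 89.2 CPM with TGFb1, against 130.4, 123 and 153 CPM in untreated cells. It did not overlap and fell 1.62-fold (log2 change -0.69, SE 0.12, adjusted p = 0.0156). Mthfd2 had 44.8, 40.4 and 37.5 CPM with TGFb1, against 53.7, 54 and 56.5 CPM in untreated cells, apart but close to the threshold (log2 change -0.41, SE 0.10, adjusted p = 0.0495), and it was called in 3 of 12 settings. The mitochondrial Mthfd1l and Shmt2 had log2 changes of -0.53 and -0.17 and missed the threshold (adjusted p = 0.0711 and 0.319), both being called with the block (adjusted p = 0.000274 and 0.0239). Mthfd1l was also called by DESeq2 and with all 18 libraries in 1 fit. All 5 folate enzymes thus had non-overlapping groups, each lower with TGFb1, where the groups did not overlap for 30.5% of all genes. For Shmt2 the margin was slight, with 200.4 CPM in the highest TGFb1 library and 201.1 CPM in the lowest untreated one.

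Serine synthesis fell in part. Psat1 had 163, 133 and 133 CPM with TGFb1, against 303, 241 and 235 CPM in untreated cells. No library overlapped, and the fall was 1.81-fold (log2 change -0.85, SE 0.14, adjusted p = 0.0134). Phgdh had 194, 155 and 112 CPM with TGFb1, against 264, 213 and 186 CPM in untreated cells, where the highest TGFb1 library lay above the lowest untreated one but each TGFb1 library was below the untreated one of its code. Its adjusted p was 0.196, and 0.000673 with the block, and the fit of all 18 libraries also called it. Psph had a log2 change of 0.06 (adjusted p = 0.898).

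Transporters moved in both directions. Slc1a4, which exchanges alanine, serine and cysteine, was the 1 member called higher in the edgeR fit of the 6 parental libraries without the block, where DESeq2 called 4 and the fit of all 18 libraries 6. It had 74.1, 57.9 and 59.2 CPM with TGFb1, against 35, 28.5 and 27.1 CPM in untreated cells. That is a 2.12-fold rise without overlap (log2 change 1.09, SE 0.15, adjusted p = 0.00886), lost only without untreated replicate 2 (adjusted p = 0.0585). Its close relative Slc1a5 had 74.6, 67.8 and 60.3 CPM with TGFb1, against 106, 93 and 98.3 CPM in untreated cells. Every TGFb1 library lay below every untreated one (log2 change -0.54, SE 0.11, adjusted p = 0.0241). Slc7a11 had 7.36, 10.3 and 9.62 CPM with TGFb1, against 18.5, 22.3 and 17.4 CPM in untreated cells, a 2.12-fold fall with the groups apart (log2 change -1.08, SE 0.19, adjusted p = 0.0173). Slc7a5 lay at the threshold (log2 change -0.53, adjusted p = 0.0505), while its heavy chain Slc3a2 had a log2 change of 0.08 (adjusted p = 0.638). Slc7a1 had 154, 89.2 and 49.2 CPM with TGFb1, against 233, 177 and 143 CPM in untreated cells: it was lower in each code pair, its levels followed the code in both groups, and it was called with the block (adjusted p = 0.00287), with all 18 libraries in 1 fit (0.0145) and without TGFb1 replicate 1, but not in the fit of 6 libraries without the block (0.211).

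**Figure D3:**
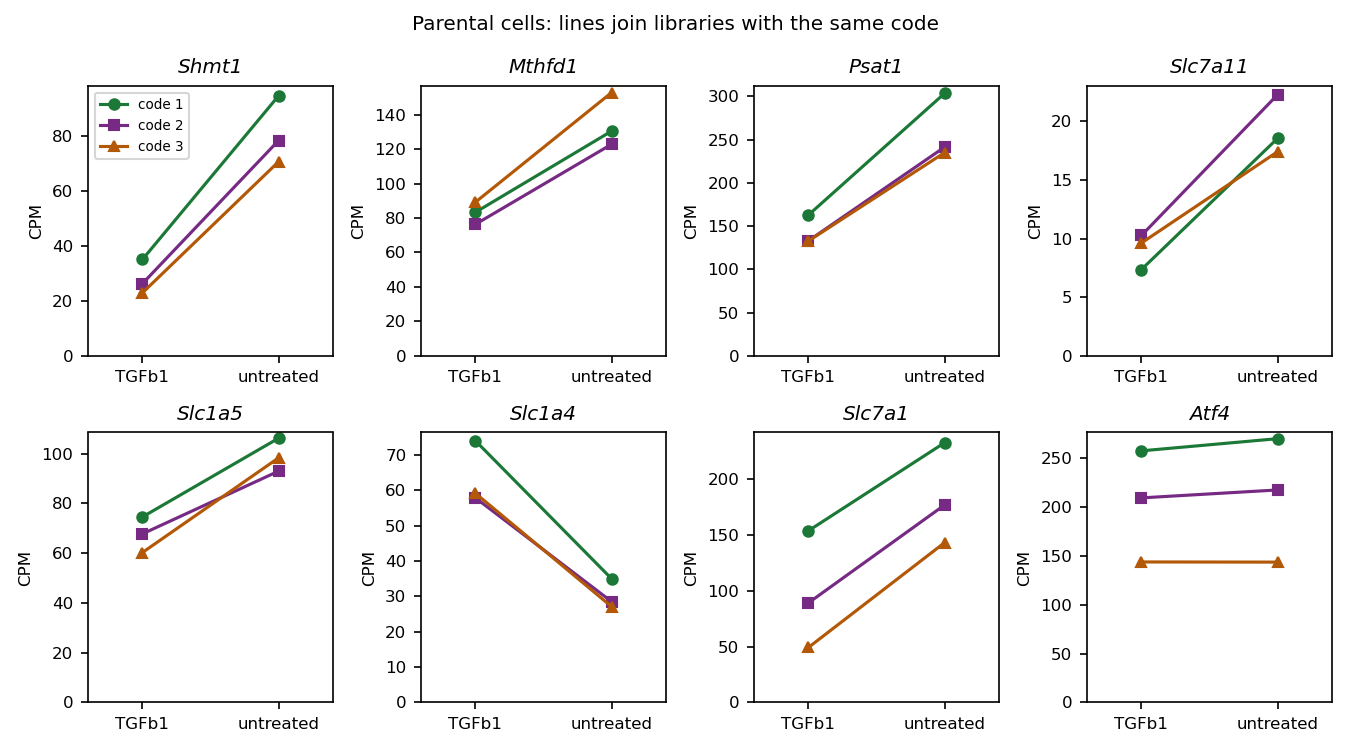
Levels in CPM of 8 members in parental cells with TGFb1 (left) and untreated (right), 1 point per library, with lines joining libraries that share a code. Shmt1, Mthfd1, Psat1, Slc7a11, Slc1a5 and Slc7a1 are lower with TGFb1 in all 3 pairs and Slc1a4 is higher in all 3, while the lines of Atf4 are nearly flat and apart by code.

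In the edgeR fit of the 6 parental libraries without the block, no ATF4 axis gene and no synthetase was called. Atf4 had 258, 209 and 144 CPM with TGFb1, against 270.0, 217 and 144 CPM in untreated cells. The level differed between codes within each group far more than between the groups (log2 change -0.04, SE 0.28, adjusted p = 0.959). Trib3 had 24.7, 18.4 and 13.1 CPM with TGFb1, against 23.3, 18.8 and 13.2 CPM in untreated cells, again alike within a code (log2 change 0.03, adjusted p = 0.975). Ddit3 and Asns also stayed under the threshold (log2 0.09 and 0.07, adjusted p = 0.776 and 0.83). Atf3 had 11, 8.72 and 9.9 CPM with TGFb1, against 8.18, 7.15 and 8.12 CPM in untreated cells, with no overlap. It was called higher with the block and with all 18 libraries in 1 fit (adjusted p = 0.0151 and 0.0494), and not in the fit of 6 libraries without the block (adjusted p = 0.243). Chac1, also without overlap, was called with the block alone among the alternatives (adjusted p = 0.0433 with the block, against 0.32 without). Of the 12 synthetases 10 had a positive log2 change, and the 12 ran from -0.10 to 0.26 with a median of 0.17. The block called 2 of them, Tars and Mars, higher (log2 0.26 and 0.20 without it), where 22.4% of all genes were called higher. DESeq2 without the block also called Tars and Mars, and the fit of all 18 libraries called Gars, Tars and Mars.

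The block raised the share called over all genes from 11.1% to 44.9%, and more of the synthesis enzymes were called with it too. Aldh18a1, Pycr1, Gpt2 and the scarce Cbs were higher with TGFb1 and Cth was lower under it. Cbs had 3 to 216 counts over all 18 libraries, and its log2 change of 1.98 missed the threshold without the block (adjusted p = 0.237). Cth had 18.8, 16.6 and 7.94 CPM with TGFb1, against 53.2, 32.4 and 21 CPM in untreated cells, apart by a narrow margin and with the same order of codes in both groups (adjusted p = 0.000271 with the block, against 0.114 without). Gpt2 had 16.7, 19.3 and 18.4 CPM with TGFb1, against 14, 14.9 and 12.2 CPM in untreated cells, apart in every library (adjusted p = 0.0103 with the block, against 0.127 without). DESeq2 without the block also called Gpt2 and Cth, and the edgeR fit of all 18 libraries called Cth and Cbs. The glutamine carrier Slc38a2 was higher in each pair (adjusted p = 0.00331 with the block).

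Further pathway genes under TGFb1 were counted by list. Over all genes 6.14% rose and 4.92% fell without the block, and 22.4% rose and 22.5% fell with it. Of 17 other integrated stress response genes tested, 6 rose and none fell (10 and 3 with the block), led by Ddit4, an inhibitor of mTORC1 (339 ± 58 CPM with TGFb1 and 75 ± 2.14 CPM untreated, SD, n = 3 each; adjusted p = 0.00144), the angiogenic factor Vegfa (log2 change 2.65, adjusted p = 0.00155) and the stress cofactor Nupr1 (log2 change 1.01, adjusted p = 0.00594). All 3 are also induced in other responses. Of 18 other serine, glycine and folate genes 2 fell and 1 rose (9 and 2 with the block), with Ppat, which commits to purine synthesis, among those that fell (log2 change -0.53, adjusted p = 0.021). None of the 11 further cytosolic synthetases and complex proteins was called by edgeR without the block, and with the block 6 fell and 1 rose. Fibroblast markers summed to 56.3 to 69.8 CPM with TGFb1 and 35.9 to 59.4 CPM in untreated cells. Pdgfra, most of these sums, averaged 51.4 CPM with TGFb1 and 48.0 CPM untreated. In the same order Col1a1 averaged 8.51 and 0.985 CPM, Pdgfrb 1.67 and 0.209 CPM and Dcn 0.0458 and 0.0562 CPM. Leukocyte markers summed to 7.35 to 12.4 CPM with TGFb1 and 4.14 to 12.4 CPM untreated. Csf1r averaged 2.35 and 0.166 CPM and Ptprc 0.162 and 0.639 CPM. Epithelial markers summed to 2032 to 3956 CPM with TGFb1 and 3197 to 4755 CPM in untreated cells. The part of these markers in the changes was not tested.

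The EV line on plastic was set against untreated parental cells as a description of the 2 layouts. The vector, puromycin selection, the medium change and the run of sample codes differ together here, and subconfluence is stated for EV alone. Their effects cannot be told apart. This comparison uses the same untreated libraries as the TGFb1 comparison and the same EV plastic libraries as the collagen comparison. Of the 42 genes 34 were higher in EV and none lower, where 19.5% of the 14476 genes tested were higher, 23.8% lower and 43.4% called in either direction. The groups did not overlap for 35 of the 42, against 57.6% of all genes, and the median log2 difference over the 42 was 0.85, against -0.05 over all genes.

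Asns had 269, 343 and 260.2 CPM in EV on plastic, against 69.8, 62 and 66.4 CPM in untreated parental cells. The EV libraries stood far above, 4.36-fold higher (log2 change 2.12, SE 0.12, adjusted p = 0.000225). Gpt2 had 62.9, 102 and 64 CPM in EV, against 14, 14.9 and 12.2 CPM in untreated cells, the largest difference of a member at 5.51-fold (log2 change 2.46, SE 0.20, adjusted p = 0.000467). Mthfd2 and Psat1 were 3.13-fold and 2.88-fold higher (adjusted p = 0.000225 and 0.00039), without overlap. All 12 synthetases were higher, by 1.39 to 2.40-fold, from Eprs (log2 0.48) to Yars (log2 1.27). Shmt2, Aldh18a1, Pycr1 and Slc7a5 were higher by 0.96, 1.28, 1.58 and 1.03 on the log2 scale.

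Among the stress regulators, Trib3 and Atf3 were higher in EV by 2.36-fold and 1.71-fold (adjusted p = 0.0119 and 0.00768), and Chac1 and Slc7a11 by 2.23-fold and 2.21-fold (adjusted p = 0.00694 and 0.0049). Atf4 did not overlap between the groups, with 274 CPM in the lowest EV library and 270.0 CPM in the highest untreated one, but missed the threshold (log2 change 0.56, SE 0.21, adjusted p = 0.066). It was called higher by DESeq2, with all 18 libraries in 1 fit and without untreated replicate 1. Ddit3 had 7.14, 9.94 and 6.68 CPM in EV, against 8.62, 8.47 and 9.26 CPM in untreated cells, overlapping (log2 change -0.16, adjusted p = 0.465). Shmt1 averaged 81.3 ± 3.9 CPM in EV and 81.3 ± 12.2 CPM in untreated cells (SD, n = 3 each; adjusted p = 0.941), with the groups overlapping. Cth, Slc38a2, Cbs, Slc7a1 and Vldlr were the other members without a call in this fit. Cth was called lower by DESeq2, with all 18 libraries in 1 fit and without untreated replicate 3. Without untreated replicate 1, Slc7a1 was called higher and Slc38a2 lower. The calls of Atf5, Wars and Sesn2 were lost without any 1 of the EV libraries and without untreated replicate 2. That of Sesn2 was also lost without untreated replicate 3, and that of Atf5 with no filter. Of 17 mitochondrial synthetases 7 were higher and 2 lower, and of 70 further genes tested 35 were higher and 11 lower. Over all genes tested 19.5% were higher and 23.8% lower.

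**Figure D4:**
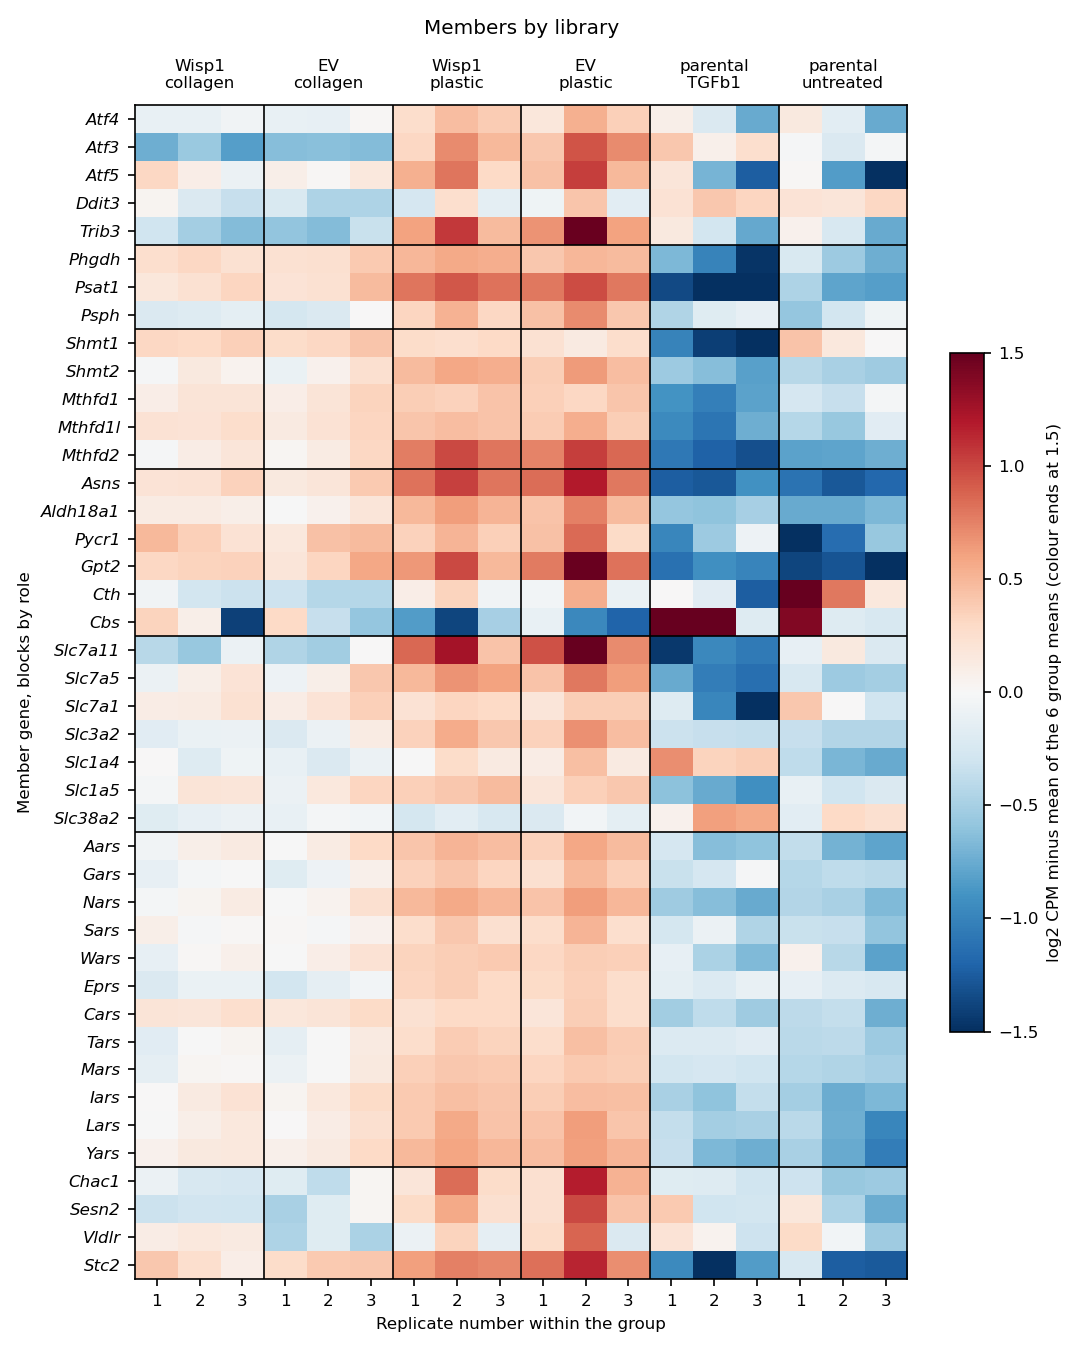
Log2 CPM of the 42 members in each of the 18 libraries, minus the mean of the 6 group means of that gene; red is above and blue below, with the colour ending at 1.5, columns in groups of 3 and rows in blocks by role. The stable lines on plastic are redder than the same lines on collagen for most members, EV plastic replicate 2 is the reddest column, and the parental libraries are blue in most rows of the serine, folate, asparagine and synthetase blocks.

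Across the 6 groups the EV line on plastic held the highest mean for 25 of the 42 genes, the Wisp1 line on plastic for 11 and the TGFb1 group for 4. Untreated parental cells held the lowest mean for 19 and the TGFb1 group for 15. Psat1 and Mthfd2 had the same order of group levels: lowest with TGFb1, then untreated, then the 2 collagen groups and highest in the 2 plastic groups, with the Wisp1 and EV libraries of a substrate overlapping. Asns shared the steps from parental to collagen to plastic, and its TGFb1 and untreated libraries overlapped.

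Individual libraries also differed within groups. On plastic, replicate 2 was the highest of 3 for 37 of the 42 genes in the Wisp1 line and for 37 in the EV line. On collagen, replicate 3 was the highest for 24 of the 42 in the Wisp1 line and for 36 in EV. The median SD of the 42 genes within EV on plastic was 0.15 on the log2 scale, against 0.07 over all genes. In parental cells 22 of the 42 genes, Atf4, Atf3, Atf5, Trib3 and Phgdh among them, had their 3 codes in the same order with TGFb1 and untreated. These counts of library order were not made over all genes. Over 12110 genes, deviations of parental libraries with the same code were correlated at 0.86, 0.73 and 0.84. What the replicate and code numbers mark is not given in the sources used here.

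**Figure D5:**
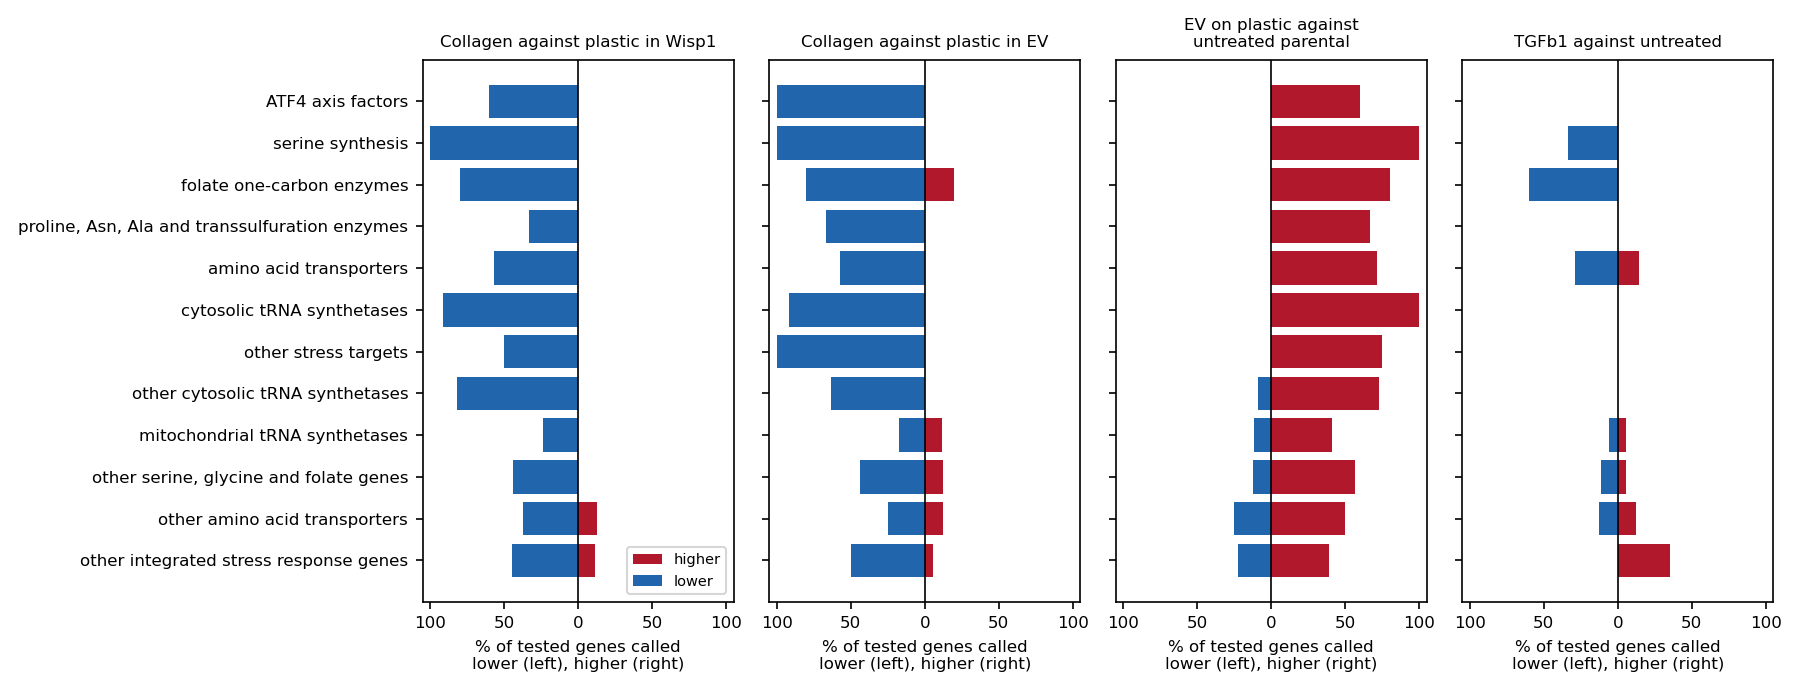
Share of tested genes called higher (right, red) and lower (left, blue) in each role of the 42 members (upper 7 bars) and in 5 lists of further pathway genes (lower 5 bars), for 4 comparisons. Bars point left for collagen and right for EV against untreated cells in every member role, except that 1 of 5 folate enzymes rose on collagen in EV, while TGFb1 shows left bars for serine and folate enzymes and both directions for transporters.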

How the data were processed

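RNA was extracted with a column kit and sequenced from stranded, poly(A)-enriched libraries, per the labels' protocols. Per the submitters' processing notes, the tools were STAR, BWA, HTSeq, CASAVA, limma and R 3.2.4 and the build mouse mm9, with no role stated for any. The values the authors deposited are whole-number read counts for each gene symbol, not normalized. Neither the annotation nor the counting settings are stated in the sources used here. The 5 summary entries (outside genes 10.2 to 13.5% of reads, ambiguous 1.02 to 2.08%, not aligned 1.84 to 3.47%) were left out.

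Counts were tested with edgeR 4.0.16 in R 4.3.3 (filterByExpr, TMM scaling, robust quasi-likelihood F test, Benjamini-Hochberg). TGFb1 and untreated libraries were fitted together, the 12 stable-line libraries in a fit with 4 group means, and EV on plastic with untreated cells in a fit of 6 libraries. Each standard error is the size of the log2 change divided by the root of its F value. Replicates of a group differed beyond counting error (chi-squared over its degrees of freedom 3.13 to 197.6), so none was counted as a repeat. Same-numbered libraries were called paired where every correlation of their deviations from the group means passed 0.1. It was 0.86, 0.73 and 0.84 for the codes that the labels share between TGFb1 and untreated, 0.23, 0.34 and 0.39 for Wisp1 and EV on plastic, and 0.70, 0.32 and 0.55 on collagen. Alternatives were DESeq2 1.42.0, its size factors in edgeR, 2 other filters, other sets of libraries, the replicate block and leaving out each library. The pipeline was tested on simulated data.

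The 42 members, their roles, the further gene lists and the tests were chosen with earlier results of these data known. All members were accounted for. Named throughout were Atf4, Atf3, Ddit3, Trib3, Asns, Phgdh, Psat1, Mthfd2, Chac1 and Slc7a11, with every member called in a comparison, the 20 with the smallest p where more were called, or the 3 with the smallest p where none was, and at most 3 called genes per further list. Pycr1, Slc7a1, Cars and other members outside this rule are named to account for the list. Promoter sequences were taken from RefSeq (GRCm38.p6), matched by symbol, and not from the build of the counts.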

Additional observations from a re-analysis of the deposited data

How the results depend on the processing

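Counts of members called on collagen and in EV against untreated cells stayed within 1.5 times under every alternative run: 24 to 37 in EV, 22 to 34 in Wisp1 and 31 to 37 in EV against untreated cells. The median member change kept its sign in these 3 comparisons. For TGFb1 the count of 7 members became 13 with DESeq2, 17 with all 18 libraries in 1 fit and 22 with the replicate block, and ran from 1 to 8 when a library was left out. The count of genes (1645) became 2910, 4865 and 6672 under the same 3 settings and 380 to 1430 without 1 library. Without untreated replicate 2 Shmt1 was the only member called.

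Wisp1 on plastic called 2 genes, which became 18 (DESeq2), 1 (all 18 libraries), 1 (mean CPM of at least 1), 0 (only the 6 libraries compared), 440 (replicate block within each substrate) and 1 to 4 without 1 library. On collagen the 10 genes became 40, 4, 6 and 2 under those settings, 32 with no filter, 18 with the block over all 4 groups, 358 with the block within each substrate and 5 to 14 without 1 library. Members numbered 0 there except 2 on each substrate with that block. The interaction called 0 genes, 1 with DESeq2, 70 with the block within each substrate (1 member) and 0 to 1 without 1 library. Collagen called 5095 genes in EV and 5641 in Wisp1, and 1629 and 2071 with all 18 libraries in 1 fit. Leaving out 1 library gave 3849 to 5562 genes and 30 to 36 members in EV, and 4450 to 5692 genes and 28 to 34 members in Wisp1. EV against untreated cells called 6276 genes, and 3711 to 8557 without 1 library.

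On collagen against plastic same-numbered libraries did not pass the pairing check (0.26, -0.16 and 0.45 in EV, and -0.05, -0.18 and -0.06 in Wisp1). The block over all 4 groups gave 5690 genes and 37 members in EV, and 6238 genes and 32 members in Wisp1. A block within each substrate was not run for these, since the comparison lies between its blocks. No paired analysis was possible because EV and untreated libraries carry numbers from separate layouts in that comparison. The cause of these shifts was not tested. Depth was at least 37552858 counts per library, and members other than Cbs had at least 161 counts in each. A member without a call is not shown to be unchanged.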

Other observations

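A few pathway genes outside the 42 also changed with TGFb1. Of 17 mitochondrial tRNA synthetases, Nars2 (asparagine) averaged 16.4 ± 2.45 CPM with TGFb1 and 33.9 ± 3.88 CPM in untreated cells (SD, n = 3 each; log2 change -1.03, adjusted p = 0.0121), and Aars2 (alanine) averaged 17.7 ± 1.9 CPM with TGFb1 and 9.94 ± 1.62 CPM in untreated cells (log2 change 0.84, adjusted p = 0.0264). These were the 1 lower and 1 higher of the 17 in edgeR's quasi-likelihood test without the block, where 11.1% of all genes were called. With the code as a block 1 of the 17 was higher and 7 were lower, where 44.9% of all genes were called. Among 8 further amino acid transporters tested, the taurine carrier Slc6a6 averaged 551 ± 36.4 CPM with TGFb1 and 205 ± 24.2 CPM in untreated cells (log2 change 1.44, adjusted p = 0.0021). The mitochondrial ornithine carrier Slc25a15 averaged 7.8 ± 1.0 CPM with TGFb1 and 15.8 ± 4.72 CPM in untreated cells (adjusted p = 0.0469). On collagen the glycine carrier Slc6a9 fell in both lines, by 0.40 on the log2 scale in Wisp1 (adjusted p = 0.0292) and by 0.74 in EV (adjusted p = 0.00085).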
